A study of Mus musculus with 3 samples.

Results

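The genes described are 10 feedback inhibitors of mitogen-activated protein (MAP) kinase signalling, chosen by name out of 32285 genes counted: the phosphatases Dusp1, Dusp4, Dusp5, Dusp6, Dusp10 and Dusp14, the Sprouty genes Spry1, Spry2 and Spry4, and the Sprouty-related gene Spred1. They were measured by droplet single-cell RNA sequencing in the stromal vascular fraction of subcutaneous inguinal fat, which is what collagenase digestion leaves once floating adipocytes are removed, sorted to lack CD31, which endothelial cells carry, and CD45, which leukocytes carry. The samples were 3 male wild-type C57BL/6J mice aged 8 weeks, with 1 library per mouse and no treatment, so every comparison is between cells of the same mice. No transgene or Cre is given for these mice, and the cells had been freed from the tissue by warm enzyme digestion before any RNA was read.

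Growth factors that bind receptor tyrosine kinases switch on the ERK arm of the MAP kinases, while stress and cytokines act more on the p38 and JNK arms. Cells that receive these signals make their own brakes: dual-specificity phosphatases remove phosphate from the MAP kinases themselves, and Sprouty and Spred proteins act further up, between the receptor and the kinase Raf. Many of these genes are transcribed in response to the pathway they inhibit, so their RNA is often used as a readout of recent signalling. In adipocyte precursors the ERK pathway is known for its part in proliferation and in the early steps of differentiation.

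All members were annotated in GENCODE on the GRCm38 build. Dusp1, which acts on all 3 arms of the MAP kinases from the nucleus, lies at chr17:26505590-26562128 on the minus strand. The ERK phosphatases lie at chr8:34807297-34819894 (Dusp4, plus strand), chr19:53529109-53542431 (Dusp5, plus strand) and chr10:99263231-99267489 (Dusp6, plus strand). Dusp10, which prefers p38 and JNK, lies at chr1:184013302-184075636 on the plus strand and the small phosphatase Dusp14 at chr11:84048041-84069261 on the minus strand. The Sprouty genes lie at chr3:37639947-37644598 (Spry1, plus strand), chr14:105891947-105896819 (Spry2, minus strand) and chr18:38586247-38601415 (Spry4, minus strand), and Spred1 at chr2:117121374-117182279 on the plus strand. Exons of Dusp1, Dusp5 and Spry1 are overlapped on the opposite strand by the genes Ergic1, AC137853.2 and Gm42922; the library chemistry keeps the strand of the RNA.

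The libraries of mice 1, 2 and 3 held 95899433, 79801002 and 100846072 unique molecular identifiers (UMIs, each standing for 1 captured RNA molecule). Filters of over 500 genes and under 5% of UMIs from mitochondrial genes passed 12984, 6414 and 15179 cells, with a median of 7392.5, 12192.5 and 6667 UMIs. Between 37 and 59 kept cell barcodes were shared by any pair of libraries. Cells were then gated on UMIs of genes that are not members. Progenitors (at least 3 UMIs of Dpp4 and Pi16 together and at most 1 of Icam1 and Fabp4 together) numbered 7399, 3169 and 9273. Preadipocytes (at least 4 UMIs of Icam1 and Fabp4 together and at most 1 of Dpp4) numbered 2278, 1394 and 1889, and regulatory cells (at least 1 UMI each of Clec11a and Fmo2 and at most 1 each of Fabp4 and Dpp4) 270, 384 and 404. Cells that met more than 1 gate, between 49 and 119 per mouse, were left out. Markers that the gates did not use were in sum highest in the class they name, though not absent from the others. Single markers did not all follow their sum. Apoe, a preadipocyte marker, was higher in regulatory cells than in preadipocytes (log2 fold change 0.71). Pdgfra, a progenitor marker, was higher in preadipocytes than in progenitors (0.22). The summed level of 8 preadipocyte markers such as Pparg and Lpl lay between 5047 and 6121 CPM (UMIs of a gene per 1000000 UMIs of the summed cells) in preadipocytes, between 2847 and 3160 CPM in regulatory cells and between 525 and 618 CPM in progenitors. That of 8 progenitor markers lay between 7458 and 7639 CPM in progenitors, between 3774 and 4117 CPM in regulatory cells and between 3117 and 3346 CPM in preadipocytes, and that of 6 regulatory markers between 2498 and 3036 CPM in regulatory cells, between 641 and 1022 CPM in preadipocytes and between 264 and 369 CPM in progenitors. Within each mouse the median share of mitochondrial UMIs was lower in progenitors (1.29, 1.93 and 1.48%) than in preadipocytes (1.67, 2.69 and 2.01%), and the median UMIs per cell were lower in regulatory cells (4945, 10104.5 and 4575) than in progenitors (7329, 12052 and 6690). Their part in the differences between classes was not tested. Within each class, cells with at least 2 UMIs of Nr4a3, Fosl1 and Nptx2 together were called activated and cells with 0 were called resting. By this score 49.3, 60.0 and 62.8% of the progenitors were activated, but 5.58, 13.5 and 13.3% of the preadipocytes and 5.93, 14.1 and 14.6% of the regulatory cells. The score is a range and not a type of cell: between 233 and 1138 progenitors per mouse stood just inside it with 2 UMIs, and between 379 and 1460 just outside with 1 UMI and were left out of the comparison of states.

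The promoters of 8 members were found in RefSeq (GRCm38.p6), and those of Dusp4 and Spry4 are not analysed here. In the 250 bases before the annotated start, 4 motifs of factors that act early after growth factor or stress signals were searched on both strands. The cAMP response element TGACGTCA was present in 1.55% of 32817 promoters and among the members in Dusp1 alone, at bases 136 to 143 before the start. The CArG box, bound by serum response factor, was present in 1.47% of promoters and among the members in Dusp5 alone, as a pair of adjoining matches at bases 63 to 82. The AP-1 site TGANTCA (6.75% of promoters) and the EGR site GCGNGGGCG (4.70%) had no match in the 8 members. Shown are the upstream bases of both genes with a match and of Dusp6 and Spry1, which share their direction with Dusp1 between cell states. Matches are in capitals, and bases next to the start that GENCODE gives to an exon of the gene are left out. This leaves 203 bases for Dusp1 and 214 for Dusp5, while the positions above are counted from the RefSeq start. The Dusp1 stretch lies inside the longer GENCODE span of the gene given above.
Dusp1, chr17:26508520-26508722, minus strand: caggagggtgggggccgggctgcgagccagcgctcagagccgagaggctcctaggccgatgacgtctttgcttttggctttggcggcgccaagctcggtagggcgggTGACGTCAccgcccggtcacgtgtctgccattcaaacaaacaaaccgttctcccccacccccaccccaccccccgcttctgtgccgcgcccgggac
Dusp5, chr19:53528895-53529108, plus strand: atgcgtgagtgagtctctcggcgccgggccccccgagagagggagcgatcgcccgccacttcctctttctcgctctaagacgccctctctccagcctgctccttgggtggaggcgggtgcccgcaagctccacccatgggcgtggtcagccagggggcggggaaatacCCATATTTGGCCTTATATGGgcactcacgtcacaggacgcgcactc
Dusp6, chr10:99262981-99263230, plus strand: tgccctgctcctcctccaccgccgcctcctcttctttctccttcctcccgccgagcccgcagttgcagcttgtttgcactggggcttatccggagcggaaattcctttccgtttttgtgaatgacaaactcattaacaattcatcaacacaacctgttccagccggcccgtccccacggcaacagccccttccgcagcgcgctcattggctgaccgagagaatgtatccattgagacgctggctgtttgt
Spry1, chr3:37639697-37639946, plus strand: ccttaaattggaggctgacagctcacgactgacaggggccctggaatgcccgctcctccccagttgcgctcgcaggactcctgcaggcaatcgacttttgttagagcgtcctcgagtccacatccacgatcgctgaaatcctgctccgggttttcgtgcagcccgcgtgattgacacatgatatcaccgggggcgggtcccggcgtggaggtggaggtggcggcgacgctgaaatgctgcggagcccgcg
A match describes these letters only and is not evidence of binding.

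Preadipocytes, the more committed precursors, were compared first with progenitors. Preadipocytes held more Spry4, Spry1, Dusp6, Dusp5, Spred1 and Dusp1 RNA, and progenitors more Dusp14, Dusp10 and Spry2. UMIs were summed per mouse and class and tested with edgeR's quasi-likelihood test with the mouse as a block, adjusted by Benjamini-Hochberg over all genes, with a threshold of 0.05. Of the 10 members, 6 were higher in preadipocytes, where 27.2% of 13255 genes were called higher, and 3 were lower, where 29.2% were called lower. The median log2 fold change of the members was 0.60, and that of all genes was 0.00. Against so high a background the count of members called is no result about them, and the sizes of the differences are given instead.

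**Figure D1:**
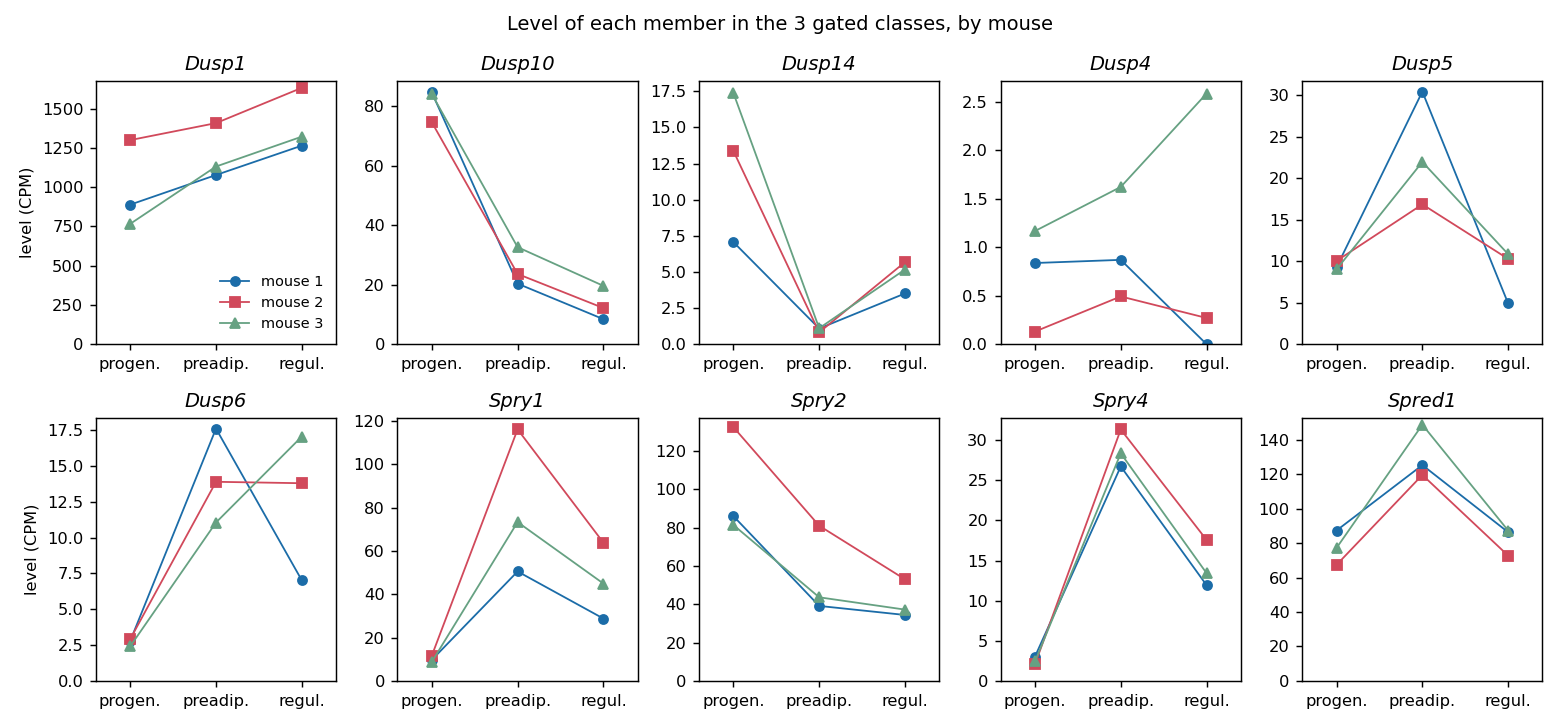
Level of each member in CPM (vertical axes, from 0) in progenitors, preadipocytes and regulatory cells (horizontal axes), with 1 line and marker per mouse. Spry4, Spry1 and Dusp6 are low in the progenitors of all 3 mice, Dusp10 is highest there, and Dusp14 is lowest in the preadipocytes of all 3 mice.

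Spry4, an inhibitor of ERK activation by receptor tyrosine kinases, was measured at 3.03, 2.09 and 2.43 CPM in the progenitors of mice 1, 2 and 3 and at 26.7, 31.3 and 28.4 CPM in their preadipocytes. Its 3 preadipocyte values differed little from each other and lay far above every progenitor value, and the log2 fold change was 3.44 ± 0.15 (standard error), or 10.9-fold, with an adjusted p of 1.29e-09 by edgeR. Regulatory cells stood between them at 11.9, 17.6 and 13.4 CPM, without overlap with either class.

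Spry1, which shares this role, was at 9.69, 11.7 and 8.78 CPM in progenitors and at 50.5, 116 and 73.3 CPM in preadipocytes. The groups did not overlap, although the preadipocytes of mouse 2 held more than those of the other mice. The log2 fold change was 2.87 ± 0.14 (edgeR, adjusted p = 4.17e-09). In regulatory cells Spry1 was at 28.8, 63.8 and 44.9 CPM, within the range of the preadipocytes in part but below the preadipocytes of the same mouse in all 3 mice.

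Dusp6, the cytoplasmic phosphatase selective for ERK and a common readout of ERK activity, was at 2.79, 2.92 and 2.41 CPM in progenitors and at 17.6, 13.9 and 11.1 CPM in preadipocytes. The log2 fold change was 2.33 ± 0.18 (edgeR, adjusted p = 3.53e-07), and the classes did not overlap. In resting cells alone the gap was smaller, with 4.72, 4.72 and 6.16 CPM in progenitors and 18.7, 15.5 and 13.5 CPM in preadipocytes. The part of the larger share of activated progenitors in the class difference was not tested. Regulatory cells held 7.02, 13.8 and 17.0 CPM, of which the value of mouse 1 rests on 10 UMIs. They did not overlap with progenitors and overlapped with preadipocytes.

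Dusp5, a nuclear phosphatase of ERK, had another order. Its progenitor values of 9.28, 10.0 and 9.02 CPM were close together, its preadipocyte values of 30.4, 16.8 and 22.0 CPM were all higher, and its regulatory values of 4.91, 10.3 and 10.8 CPM overlapped with progenitors. The log2 fold change of preadipocytes against progenitors was 1.21 ± 0.17 (edgeR, adjusted p = 5.80e-05).

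Spred1, which holds back Raf by bringing the Ras inhibitor neurofibromin to the membrane, was at 87.3, 67.4 and 77.2 CPM in progenitors and at 125, 120 and 149 CPM in preadipocytes. The classes were separate, and the log2 fold change was 0.71 ± 0.08 (edgeR, adjusted p = 6.33e-06). Regulatory cells, at 86.4, 72.8 and 87.3 CPM, overlapped with progenitors and lay below all preadipocyte values.

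Dusp10 ran the other way. It was at 84.7, 74.7 and 84.1 CPM in progenitors, at 20.4, 23.6 and 32.6 CPM in preadipocytes and at 8.42, 12.2 and 19.6 CPM in regulatory cells, so that each class was separate from the next. The log2 fold change of preadipocytes against progenitors was -1.75 ± 0.11 (edgeR, adjusted p = 5.30e-08).

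Dusp14 was at 7.07, 13.4 and 17.4 CPM in progenitors and at 1.09, 0.82 and 1.11 CPM in preadipocytes, where these values rest on 20, 15 and 15 UMIs. Its log2 fold change was -3.63 ± 0.22 (edgeR, adjusted p = 2.72e-08), the largest difference among the members in this fit of all cells of each class. Regulatory cells held 3.51, 5.68 and 5.17 CPM, between the other classes, from 5, 21 and 10 UMIs. In resting cells alone the gap was smaller, with 3.44, 5.73 and 8.15 CPM in progenitors and 1.09, 1.21 and 1.04 CPM in preadipocytes. The part that the larger share of activated cells among progenitors had in the class difference was not tested.

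Spry2 was the Sprouty gene that did not follow Spry1 and Spry4. It was at 86.0, 132 and 81.3 CPM in progenitors, at 39.1, 80.9 and 43.6 CPM in preadipocytes and at 34.4, 53.0 and 37.2 CPM in regulatory cells. Mouse 2 was the highest in every class, and progenitors lay above preadipocytes within each mouse. Resting cells alone held 69.4, 87.4 and 73.5 CPM in progenitors and 35.7, 73.2 and 41.2 CPM in preadipocytes. Progenitors were still higher within each mouse, but these values overlapped across mice. The part of the larger share of activated progenitors in the class difference of Spry2 was not tested. The log2 fold change of preadipocytes against progenitors was -0.96 ± 0.08 (edgeR, adjusted p = 8.85e-07).

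Dusp1, an immediate early gene, was at 888, 1299 and 766 CPM in progenitors, at 1077, 1407 and 1131 CPM in preadipocytes and at 1264, 1632 and 1321 CPM in regulatory cells. The classes overlapped because mouse 2 was high in all of them, yet preadipocytes were higher in 3 of 3 mice, with a log2 fold change of 0.26 ± 0.08 (edgeR, adjusted p = 0.0201). In resting cells alone it was -0.11 with an adjusted p of 0.205. Without mouse 3 it was 0.15 with an adjusted p of 0.179 by edgeR. Dusp4, an ERK phosphatase of the nucleus, stayed below 3 CPM in every class and mouse (45, 5 and 72 UMIs in progenitors, 16, 9 and 22 in preadipocytes, 0, 1 and 5 in regulatory cells) and no difference was detectable at this depth.

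Regulatory cells and progenitors were compared in the same fit. Here 4 members were higher in regulatory cells (19.0% of all genes were) and 3 were lower (24.0%), with a median log2 fold change of 0.30 for the members and -0.05 for all genes. Spry4 (log2 fold change 2.55 ± 0.22), Dusp6 (2.28 ± 0.27) and Spry1 (2.16 ± 0.19) were again the members with the largest rise, with edgeR adjusted p of 1.86e-06, 2.71e-05 and 2.51e-06, and Dusp1 was higher by 0.53 ± 0.09 (adjusted p = 0.00032). In resting cells alone Dusp1 was higher by 0.20 (edgeR, adjusted p = 0.039). Dusp10 was lower by a log2 fold change of -2.59 ± 0.19, Spry2 by -1.31 ± 0.11 and Dusp14 by -1.35 ± 0.27, with edgeR adjusted p of 3.46e-07, 1.91e-06 and 0.00152. In resting cells alone the log2 fold change of Dusp14 was 0.09 (adjusted p = 0.869), and so did not pass the threshold there. For Spred1 the log2 fold change was 0.08 ± 0.09 (adjusted p = 0.532), and for Dusp5 it lay at 0 within an error of 0.29.

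Against preadipocytes, 2 members were higher in regulatory cells (12.3% of all genes were) and 5 were lower (13.3%), with a median log2 fold change of -0.49 beside -0.04 for all genes. Dusp14 was higher by 2.28 ± 0.38 on the log2 scale (edgeR, adjusted p = 0.00089). Lower were Dusp5 (-1.22 ± 0.27), Spry4 (-0.90 ± 0.19), Dusp10 (-0.84 ± 0.21), Spry1 (-0.71 ± 0.17) and Spred1 (-0.63 ± 0.09), with edgeR adjusted p of 0.006, 0.00361, 0.0115, 0.00932 and 0.000382. Dusp1 was called at an adjusted p of 0.0341 with a log2 fold change of 0.28 ± 0.09, which missed the threshold in 7 alternatives, library-size scaling among them. Without mouse 2 the calls of Dusp5, Spry4 and Spred1 were left, 3 of these 7. Dusp6 had a log2 fold change of -0.05 ± 0.24 (adjusted p = 0.925) and Spry2 one of -0.34 ± 0.12 (adjusted p = 0.0526).

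RNA of other cell types was present at low levels and differed between the classes. Of 7 mural markers, 6 were called higher in preadipocytes than in progenitors and Kcnj8 lower, and their summed level ranged from 32.7 to 50.3 CPM in preadipocytes, 8.47 to 10.7 CPM in progenitors and 13.3 to 24.3 CPM in regulatory cells. Of 7 endothelial markers, 5 were called higher in preadipocytes and Tek lower, though the summed level was higher in progenitors (140 to 169 CPM against 41.7 to 87.0 CPM, and 21.6 to 27.4 CPM in regulatory cells), where Tek alone was at a mean of 154 CPM. The 8 leukocyte markers summed to between 1.20 and 18.3 CPM, and of 2 that were tested none was called between these classes. Of 6 cycling markers, Birc5 alone was called between preadipocytes and progenitors (0.99, higher), while 5 were called lower in regulatory cells than in progenitors. Leaving out every cell with a UMI of any of 12 such markers left 1990 of 2278, 1091 of 1394 and 1687 of 1889 preadipocytes. In these cells 9 members were called between preadipocytes and progenitors, where 56.5% of all genes were. Between regulatory cells and progenitors 7 were called (42.4% of all genes were), and between regulatory cells and preadipocytes 7 (25.3%). These were as many as before, but against this background the counts are no result about the members. Spry4 then had a log2 fold change of 3.45, Spry1 of 2.90 and Dusp6 of 2.28 between preadipocytes and progenitors.

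The second question was how the brakes differ between activated and resting progenitors. Activated progenitors held more Dusp14, Spry2 and Dusp10 and less Dusp6, Dusp1 and Spry1. UMIs were summed per mouse, class and state, and the states were compared within each mouse and class in 1 edgeR fit of 18 sums. Of the 9 members that passed the filter on low counts (Dusp4 did not), 3 rose, where 11.9% of 12070 genes rose, and 3 fell, where 7.67% fell. The median log2 fold change of these 9 was 0.13 and that of all genes 0.02. Class markers differed too: 4 of 8 preadipocyte markers fell and 0 rose, and 4 of 6 regulatory markers fell and 1 rose. Of 8 progenitor markers 2 rose and 1 fell. The preadipocyte markers summed to 547, 486 and 481 CPM in activated and to 746, 633 and 676 CPM in resting progenitors. The 6 called members moved in the direction in which progenitors differed from preadipocytes above. The part of class identity in these state differences was not tested. When library size alone was used for scaling, the median of all genes moved to -0.11 and the split of calls from 1438 higher and 926 lower genes to 768 and 2153, while the same 6 members were called in the same directions.

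**Figure D2:**
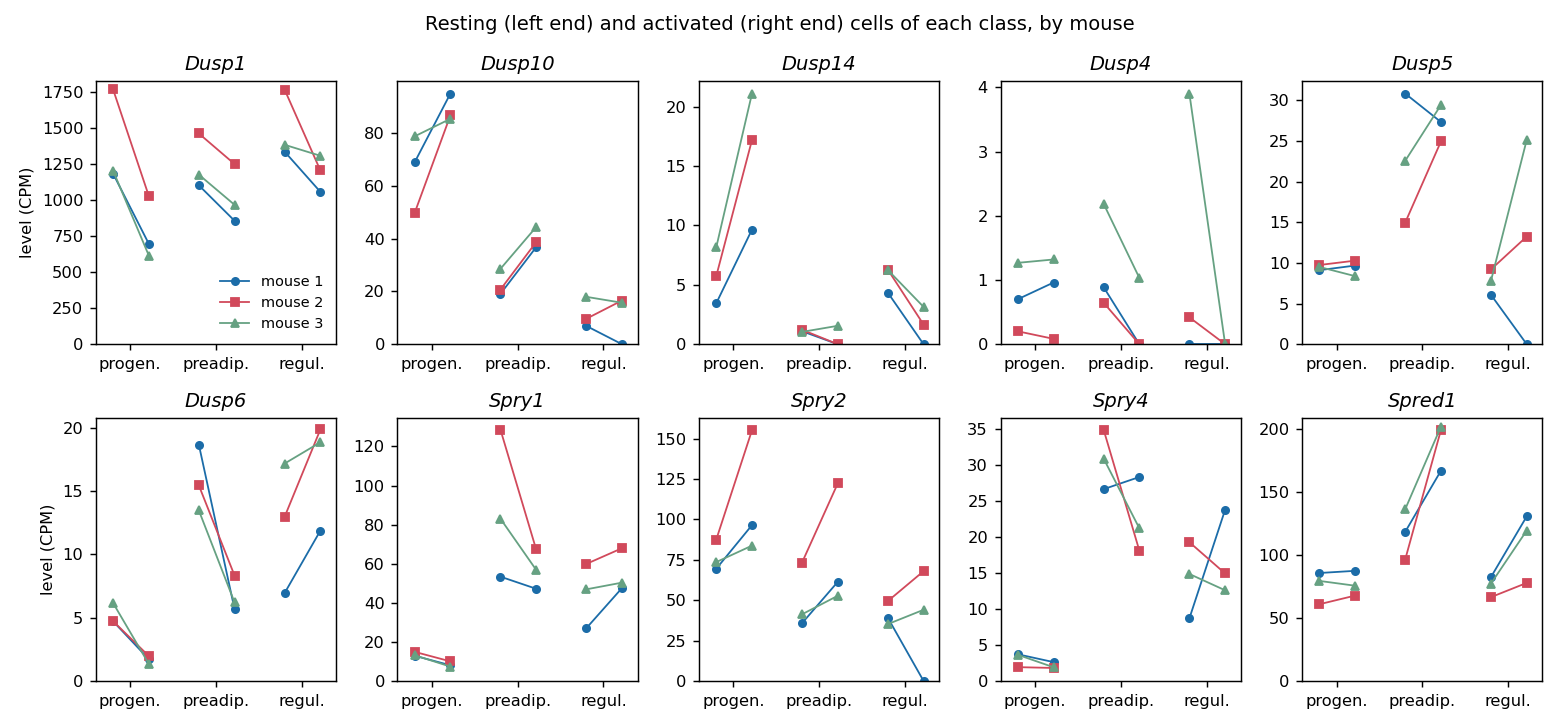
Level of each member in CPM (vertical axes, from 0) in resting cells (left end of each line) and activated cells (right end) of progenitors, preadipocytes and regulatory cells, with 1 line per mouse. Dusp1 and Dusp6 run downward and Dusp14 upward in the progenitors of all 3 mice, and Spred1 runs upward in the preadipocytes of all 3 mice.

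Dusp14 was at 3.44, 5.73 and 8.15 CPM in the resting progenitors of mice 1, 2 and 3 and at 9.65, 17.2 and 21.1 CPM in the activated ones. It was higher in 3 of 3 mice and the states did not overlap, with a log2 fold change of 1.60 ± 0.13, or 3.04-fold (edgeR, adjusted p = 1.65e-08).

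Dusp10 was at 69.0, 49.8 and 78.8 CPM in resting and at 95.0, 86.7 and 85.4 CPM in activated progenitors. It rose by a log2 fold change of 0.58 ± 0.10 (edgeR, adjusted p = 0.000175), with the smallest step in mouse 3. Spry2 was at 69.4, 87.4 and 73.5 CPM in resting and at 96.4, 155 and 83.7 CPM in activated progenitors. Its states overlapped across mice but activated cells were higher in 3 of 3 mice, and the log2 fold change was 0.63 ± 0.11 (edgeR, adjusted p = 0.000241, and 0.0739 by DESeq2).

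Dusp6 was at 4.72, 4.72 and 6.16 CPM in resting progenitors, from 74, 47 and 68 UMIs, and at 1.72, 1.97 and 1.34 CPM in activated progenitors. It fell in all 3 mice without overlap, with a log2 fold change of -1.53 ± 0.19 (edgeR, adjusted p = 3.80e-06). The activated progenitors therefore carried the lowest Dusp6 level of the 6 class and state groups.

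Dusp1 was at 1184, 1769 and 1204 CPM in resting and at 697, 1029 and 616 CPM in activated progenitors. Every activated value lay below every resting value, and the log2 fold change was -0.70 ± 0.09 (edgeR, adjusted p = 5.87e-06). Spry1 was at 12.9, 14.9 and 13.1 CPM in resting and at 8.00, 9.99 and 7.32 CPM in activated progenitors, a fall without overlap and with a log2 fold change of -0.57 ± 0.11 (edgeR, adjusted p = 0.000695). Spry4 had a log2 fold change of -0.44 ± 0.21 (adjusted p = 0.142), Spred1 of 0.17 ± 0.09 (adjusted p = 0.213) and Dusp5 of 0.13 ± 0.13 (adjusted p = 0.562), none past the threshold.

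**Figure D3:**
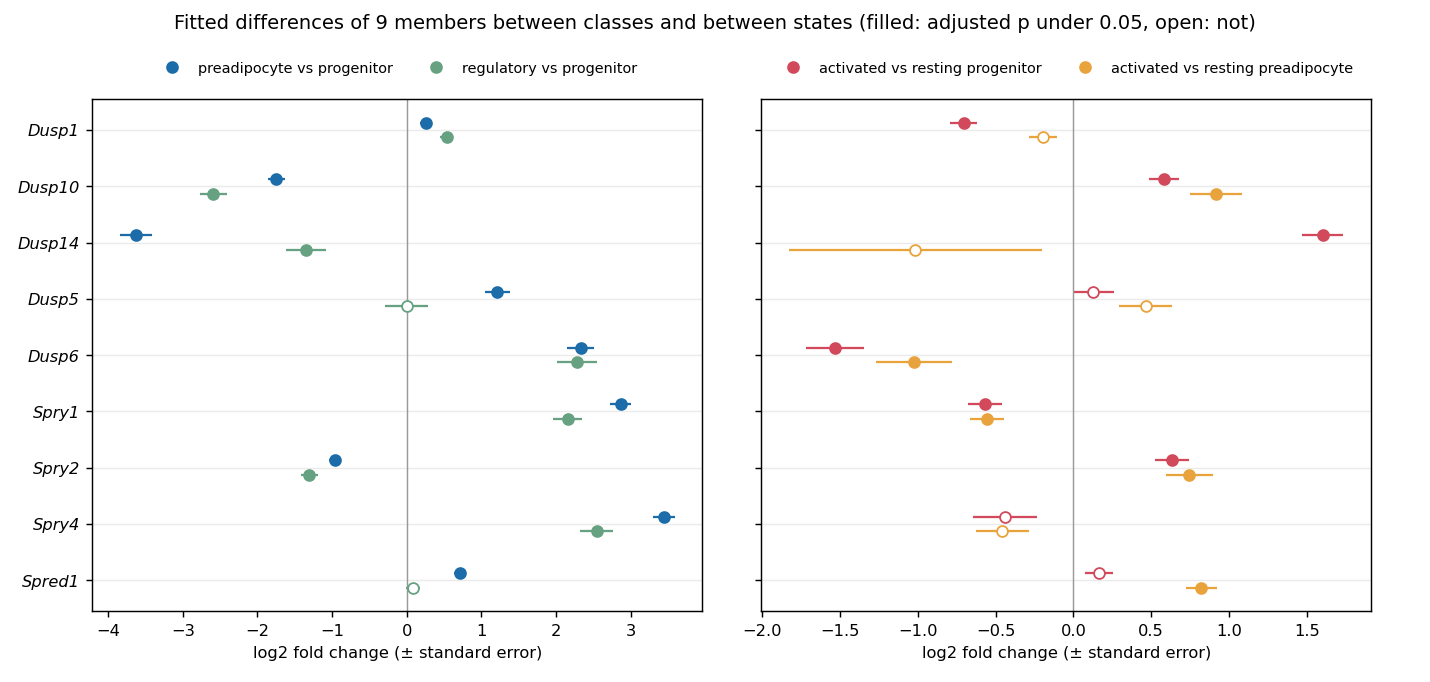
Fitted log2 fold changes with standard errors (horizontal axes) of 9 members for preadipocytes and regulatory cells against progenitors (left) and for activated against resting cells (right), with filled points past the adjusted p threshold of 0.05. Spry4, Spry1 and Dusp6 lie to the right in both class comparisons, and in the states Dusp6 and Spry1 lie to the left and Dusp10 and Spry2 to the right in both classes.

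The levels of these 6 members were also read along the score, as a description. Progenitors were split at 0, 1, 2 to 3, 4 to 7 and 8 or more UMIs of Nr4a3, Fosl1 and Nptx2. The mean level of Dusp1 over the mice was 1386, 1204, 1046, 811 and 590 CPM along these bins, and it fell at each step in each mouse. Dusp14 went from 5.77 to 8.85, 11.3, 13.5 and 21.3 CPM, with a step up in each mouse at each bin. Dusp6 went from 5.20 to 3.22, 2.88, 1.75 and 0.86 CPM, although its last bin holds only 6, 11 and 14 UMIs. Spry2 went from 76.8 to 90.6, 95.7, 102 and 126 CPM and Dusp10 from 65.8 to 76.3, 76.5, 86.7 and 98.5 CPM. Spry1 was lowest in the fourth bin at 6.50 CPM and stood at 8.40 CPM in the last. Cells of the highest bin were somewhat deeper, with a median of 7952, 12743.5 and 7280 UMIs against 6779, 11610 and 5966 in the lowest.

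**Figure D4:**
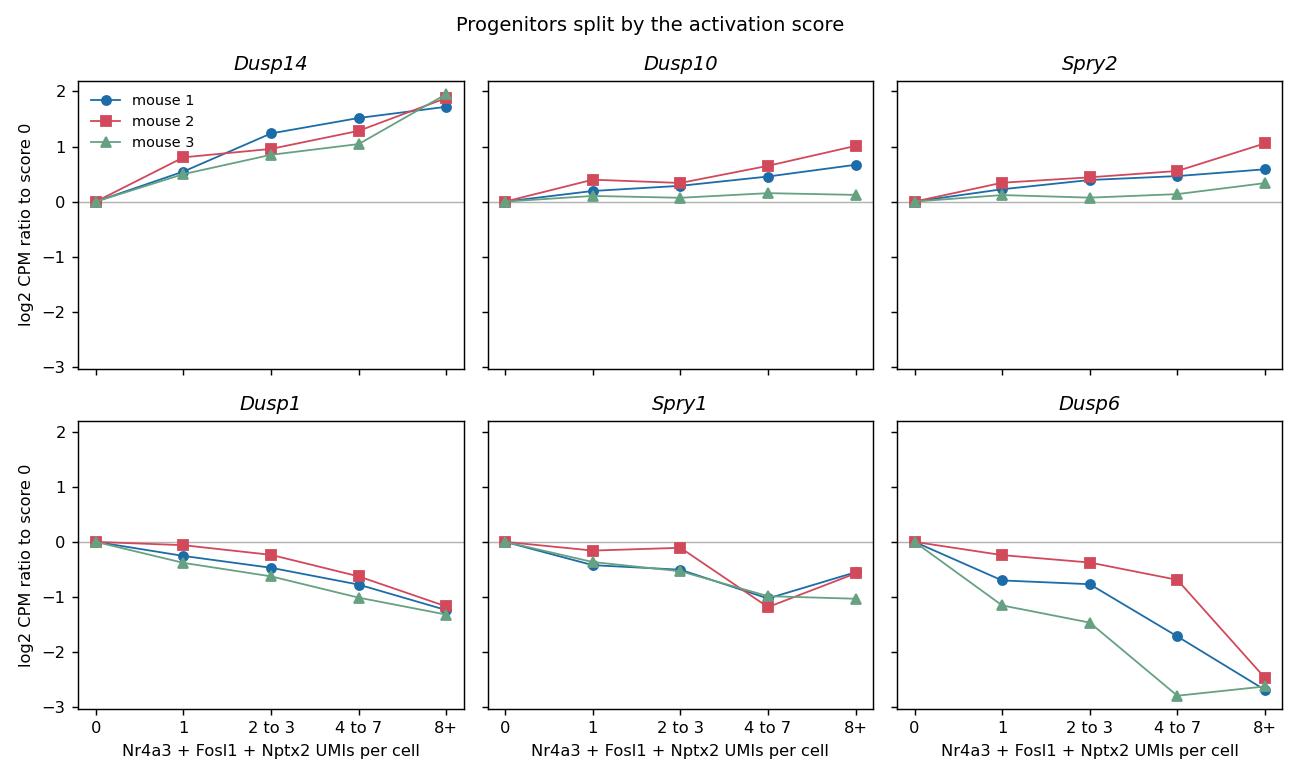
Log2 ratio of each level to that of progenitors with a score of 0 (vertical axes) along the summed UMIs of Nr4a3, Fosl1 and Nptx2 per cell (horizontal axes), with 1 line per mouse. Dusp14 climbs and Dusp1 declines at every step in all 3 mice, while the rise of Dusp10 is small in mouse 3, at 0.12 in the last bin.

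In preadipocytes the comparison of activated with resting cells rests on 127, 188 and 252 activated cells. Of 9 members tested, 3 rose (8.75% of all genes did) and 2 fell (4.33% did), with a median log2 fold change of -0.19 beside -0.01 for all genes. With library size alone the median of all genes was -0.11 and the split moved from 1056 higher and 523 lower genes to 752 and 996, and 4 members fell in place of 2, Dusp1 and Spry4 being added. Spred1 went from 118, 96.4 and 136 CPM in resting to 167, 199 and 202 CPM in activated preadipocytes, all above the resting values, with a log2 fold change of 0.82 ± 0.10 (edgeR, adjusted p = 7.62e-06). Dusp10 went from 19.1, 20.7 and 28.6 CPM to 36.8, 38.7 and 44.4 CPM, also without overlap (0.92 ± 0.17, adjusted p = 0.000697), and Spry2 rose by 0.74 ± 0.15 on the log2 scale (edgeR, adjusted p = 0.00184). Dusp6 went from 18.7, 15.5 and 13.5 CPM to 5.66, 8.32 and 6.20 CPM, from 6, 23 and 12 UMIs in the activated cells, with a log2 fold change of -1.02 ± 0.24 (edgeR, adjusted p = 0.00699). Without mouse 1 its adjusted p was 0.0771. Spry1 fell by a log2 fold change of -0.55 ± 0.11 (edgeR, adjusted p = 0.00148), and without mouse 2, which showed the largest fall, this was -0.37 with an adjusted p of 0.0676. Dusp1 had a log2 fold change of -0.19 ± 0.09 (adjusted p = 0.171) and was lower in 3 of 3 mice. It passed the threshold with library size alone (-0.29, edgeR adjusted p = 0.0104), without the filter on low counts (-0.24, adjusted p = 0.0438) and without mouse 2 (-0.27, adjusted p = 0.00376). Dusp14 was read from 0, 0 and 3 UMIs in activated preadipocytes, too few for a fold. Of 8 preadipocyte markers 3 fell and 0 rose. Their sum was 5031, 4034 and 4685 CPM in activated and 6303, 5333 and 6368 CPM in resting preadipocytes. Of 8 progenitor markers 3 rose and 0 fell, with sums of 3186, 3333 and 3272 against 3134, 3373 and 3060 CPM. Dusp10, Spry2, Dusp6 and Spry1 moved toward their progenitor levels and Spred1 moved away from its own. The part of class identity in these state differences was not tested. The mural markers summed to 201, 29.3 and 53.7 CPM in activated and to 41.4, 30.8 and 43.8 CPM in resting preadipocytes. After cells with a marker of another cell type were left out, 5 members were still called between the states, where 12.4% of all genes were. When all cells were thinned to 3000 UMIs and gated again, none of these 5 members passed the threshold, and Dusp1 alone did, with a log2 fold change of -0.53 (edgeR, adjusted p = 0.00232).

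The difference between the state effects of preadipocytes and progenitors was tested in the same fit, in which 1.57% of all genes differed. It passed the threshold for Spred1, whose effect was greater in preadipocytes by 0.66 ± 0.13 on the log2 scale (edgeR, adjusted p = 0.0106), and for Dusp1, whose fall was smaller in preadipocytes by 0.51 ± 0.13 (adjusted p = 0.0409). Both were lost without mouse 1 (adjusted p = 0.0807 and 0.12), without mouse 3 (adjusted p = 0.058 and 0.59) and in cells thinned to 3000 UMIs (adjusted p = 0.463 and 0.622). For Dusp14 the adjusted p was 0.0787. For Spry1, Spry2 and Spry4 the difference was 0.02 ± 0.15, 0.11 ± 0.18 and -0.02 ± 0.31. Activated cells had lower scores in preadipocytes, where 80 of 127, 80 of 188 and 132 of 252 stood at 2 UMIs. Among activated progenitors these were 794 of 3646, 233 of 1901 and 1138 of 5821. The part of the unlike scores in these differences was not tested.

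In regulatory cells only 16, 54 and 59 activated cells were found, and no member of 9 passed the threshold by edgeR, where 0.0829% of all genes rose and 0.0746% fell. In mouse 1 leukocyte markers summed to 297 CPM in these cells. Dusp1 (log2 fold change -0.36 ± 0.10, edgeR adjusted p = 0.179) and Spred1 (0.44 ± 0.21, adjusted p = 0.519) were the 2 members under an unadjusted p of 0.05, and 1 member passed the threshold without the filter on low counts and 1 in thinned cells. DESeq2 called 0 members but gave an adjusted p to 3 of the 9. With library size alone the split of all genes moved from 10 higher and 9 lower to 38 and 15. The test of the difference from progenitors called 0 members, where 0.0911% of all genes differed, with 4 members under an unadjusted p of 0.05, and DESeq2 called 1 of the 5 that it gave an adjusted p. Dusp6 ranged from 6.95 to 17.2 CPM in resting and from 11.9 to 19.9 CPM in activated regulatory cells, higher in 3 of 3 mice but from 1, 12 and 6 UMIs in the activated cells. Its state effect differed from that of progenitors by 2.01 ± 0.50 on the log2 scale, with an edgeR adjusted p of 0.125. In mouse 1, Dusp5, Dusp10, Dusp14 and Spry2 had 0 UMIs in the 16 activated cells, so that differences of low members were not detectable at this depth.

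Other genes of the pathway are given by the log2 fold changes of the same edgeR fits, and those named for the classes were chosen after their values were seen. Over all genes, 11.9% rose and 7.67% fell in activated progenitors. Between preadipocytes and progenitors 27.2% were higher and 29.2% were lower. List counts near these shares are no result about the list. Of the 5 other MAP kinase phosphatases, 3 were tested: Dusp16 rose in activated progenitors (0.41, adjusted p = 0.00782, lost when library size alone was used), and between preadipocytes and progenitors Dusp8 (-1.04) and Dusp16 (-0.82) were lower and Dusp7 (0.42) was higher. Of the 3 other Sprouty and Spred genes, 2 were tested and Spred3 fell in activated progenitors (-0.73), while both fell with library size alone. Among 13 other regulators of the pathway, 3 rose and 2 fell in activated progenitors. Ier3 (0.88), Errfi1, an inhibitor of the EGF receptor (0.82), and Trib1 (0.50) rose, and Il17rd (-0.35) and Phlda1 (-0.32) fell. With library size alone 2 rose and 2 fell. Between preadipocytes and progenitors 4 of these 13 were higher and 7 were lower (4 and 4 with library size alone), with Errfi1 at -2.21.

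The ERK cascade was taken from adaptors such as Grb2 and Shc1 through Ras to the ERK-dependent kinases. Of its 20 tested components 5 rose and 0 fell in activated progenitors, among them Braf (0.56) and Nras (0.31). With library size alone 2 rose and 1 fell. Of these 20, 3 were higher and 8 lower in preadipocytes than in progenitors (4 and 7 with library size alone). Of 17 tested p38 and JNK genes 6 rose, with Gadd45a (0.60), Gadd45b (0.53) and Mapkapk2 (0.46) ahead, and Gadd45g fell (-0.53), against 3 and 2 with library size alone. In the class comparison 5 of 18 were higher and 9 were lower. Of 12 receptor tyrosine kinases 4 rose, with Fgfr1 (0.92), Ntrk2 (0.56) and Igf1r (0.29) ahead, and 0 fell, against 2 and 2 with library size alone, while between preadipocytes and progenitors 2 were higher and 6 were lower. Of 18 growth factors tested, 4 rose, with Hbegf (0.96), Vegfa (0.58) and Fgf2 (0.27) ahead, and Fgf10 (-0.77), Fgf9 (-0.69) and Kitl (-0.65) fell. With library size alone 2 rose and 4 fell. Of 19 growth factors tested between the classes 8 were higher and 9 were lower in preadipocytes. In activated progenitors the median log2 fold change was 0.10 for the ERK cascade and 0.13 for the p38 and JNK genes. It was 0.12 for the receptors, -0.10 for the growth factors and 0.02 for all genes. Between preadipocytes and progenitors these medians were -0.12, -0.23, -0.47 and -0.25, and that of all genes was 0.00.

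Among 21 transcription factors that ERK is known to induce or activate, 8 rose and 6 fell in activated progenitors (11.9% and 7.67% of all genes did). So the list did not move one way (7 and 7 with library size alone). Its median log2 fold change was 0.12 beside 0.02 for all genes. Fosl2 (1.28), Maff (1.24) and Ets1 (0.88) led the rise, and Etv1 (-1.11), Fos (-1.07) and Jun (-0.96) led the fall. In preadipocytes 12 were higher than in progenitors and 4 were lower (27.2% and 29.2% of all genes were), with a median of 0.36 beside 0.00. Among them Etv1 (3.85), Egr3 (2.49) and Egr2 (2.25) were higher and Fosl2 (-2.09) was lower. Of 25 genes known to respond to tissue dissociation, 3 rose and 11 fell in activated progenitors (3 and 18 with library size alone), with Cebpb (1.16), Ier3 and Junb rising and Hspa1b (-1.18), Fos and Hspa1a (-1.05) falling. Fos, Fosb, Jun, Junb, Egr1, Ier2 and Atf3 are in both this list and that of the transcription factors. Ier3 is also among the other regulators of the pathway, so the lists are not separate observations. The median log2 fold change of these 25 was -0.21 in activated against resting progenitors and 0.58 between preadipocytes and progenitors. Their summed level was 26629, 25901 and 24130 CPM in activated and 34098, 29420 and 33337 CPM in resting progenitors, and 18 of them were higher and 3 lower in preadipocytes than in progenitors, where they summed to between 36659 and 46033 CPM against 26656 to 29672 CPM. Dusp1, Dusp6 and Spry1 were called in the same direction as this sum in both comparisons. Among resting cells the sum was 38633 to 48768 CPM in preadipocytes and 29420 to 34098 CPM in progenitors. Dusp1 did not follow it there, at 1103 to 1462 CPM in resting preadipocytes and 1184 to 1769 CPM in resting progenitors. Dusp6 and Spry1 did. Dusp6 was at 13.5 to 18.7 CPM in resting preadipocytes and 4.72 to 6.16 CPM in resting progenitors. Spry1 was at 53.4 to 129 CPM and 12.9 to 14.9 CPM. The part that digestion played in the members' levels was not tested.

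The genes most like each member were sought over the 18 sums of classes and states, by Pearson's r of log2 CPM after each mouse's mean was taken off, among 5510 genes of at least 20 CPM. The sums share libraries and cells of the same mice, so r is a description. Spry4 was nearest to Spry1 (r = 0.98), followed by Gnb4 and Mdk. Among the 5510 genes Spry1 was nearest to Gnb4 (0.98), Lum and Col15a1, but Spry4 lay under 20 CPM and could not be named there. Spry2 was nearest to the phosphatase Dusp16 (0.99), followed by Galnt11 and Trim30a. Dusp1 was nearest to Gm26802 (0.93), the immediate early gene Fos (0.88) and Clpx, Dusp6 to Kctd12 (0.93), Trappc4 and Mbd1, and Dusp5 to Cdk14 (0.95), 4930402H24Rik and Hsd17b12. Dusp10 was nearest to Rpl12 (0.98), Larp6 and Hivep2, Dusp14 to Ly6a (0.91), Plac8 and Pygl, and Spred1 to Tnfrsf12a (0.95), Limd1 and Bcl10. For Dusp4, at 0 in several sums, Ehmt1, Hoxc6 and Nol12 came first and the likeness rests on few UMIs. Dusp5, Dusp10, Dusp14 and Spry2 were also at 0 in the activated regulatory cells of mouse 1, and Dusp14 in the activated preadipocytes of mice 1 and 2. How far such values at 0 set the r of these members was not tested.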

How the data were processed

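Single-cell RNA of CD31- CD45- stromal cells from inguinal fat was measured in 3 libraries, 1 per mouse, all of 1 group. The authors deposited raw UMI counts per gene and cell barcode, not normalized, with replicates not pooled. The file headers name cellranger 4.0.0, whereas the submitters' processing notes name Cell Ranger 2.1.1 and the mm10 build. Which version made the counts could not be settled from these sources, and the version bears on which barcodes are called cells. The 3′ tags count molecules per gene and hold no length term.

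UMIs were summed per mouse and class (9 sums) or per mouse, class and state (18 sums). Sums were tested in edgeR 4.0.16 (limma 3.58.1, R 4.3.3) after filterByExpr and TMM scaling, by glmQLFit and glmQLFTest, with mouse as a block in the class fit and mouse within class in the state fit. Benjamini-Hochberg adjustment ran over 13264 and 12079 genes at a threshold of 0.05, and the 9 gate genes were fitted but not counted. Each standard error is the log2 fold change divided by the square root of its F. The fitted log2 fold changes use TMM and the CPM values do not, so they can differ. Doublets were not called, which leaves mixed cells in the classes. Instead, cells above 3 times the median UMIs of their mouse were left out in an alternative.

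The block was used because sums of a mouse come from 1 animal. With group means taken off, the lowest correlation between sums of the same mouse was 0.135, 0.348 and 0.226 in the class fit and 0.0117, 0.121 and 0.0356 in the state fit. On simulated data for preadipocytes against progenitors (13066 genes), 97 of 100 genes with a log2 change of 1 and 100 of 100 with a log2 change of 2 were recovered, with 5 false calls. For the states of progenitors (11740 genes) 100 of 100 were recovered at both sizes, with 7 false calls.

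The members and the gene lists were chosen with earlier results of these data known. Named genes are all members, up to 3 rises and 3 falls of each list past the threshold in activated progenitors, and the 3 genes nearest in pattern to each member. The values of 1 gene that this rule names are not reported here. Promoter motifs were searched as exact matches in RefSeq sequences.

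Alternatives were library-size scaling, DESeq2 1.42.0, no filter on low counts, no mouse block, a mitochondrial limit of 10%, stricter gates, cells of several gates kept, high-UMI cells left out, resting cells only, each mouse left out, and cells thinned to 3000 UMIs, which dropped 1227, 299 and 1881 shallower cells. A fit of the progenitor sums alone and the removal of cells with a marker of another cell type were added after seeing the data. Python 3.11.15 was used with numpy 2.4.6, scipy 1.17.1, pandas 2.3.3 and matplotlib 3.10.9.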

Additional observations from a re-analysis of the deposited data

Results flagged for a closer look

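The effect of the activated state differed between preadipocytes and progenitors for both Spred1 and Dusp1, by a test of the difference itself in edgeR. For Spred1 the difference was 0.66 ± 0.13 on the log2 scale (adjusted p = 0.0106). Its log2 fold change of activated against resting cells was 0.82 in preadipocytes, higher in 3 of 3 mice, and 0.17 in progenitors, higher in 2 of 3 mice. For Dusp1 the difference was 0.51 ± 0.13 (edgeR, adjusted p = 0.0409). Its log2 fold change was -0.19 in preadipocytes and -0.70 in progenitors, and activated cells were lower in 3 of 3 mice in both classes. Neither difference passed the threshold without mouse 1, with log2 differences of 0.72 for Spred1 and 0.57 for Dusp1, or without mouse 3, with 0.68 and 0.44. A larger share of activated preadipocytes than of activated progenitors stood at the lowest activated score of 2 UMIs. The part of these unlike scores in both differences was not tested.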

How the results depend on the processing

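Of 106 counts of members called under an alternative, 89 stayed within 1.5 times the reported count. Without the replicate block, which pairs the sums of 1 mouse, the count fell from 7 to 4 between regulatory cells and preadipocytes, from 6 to 2 between states of progenitors (Dusp6 and Dusp14), from 5 to 1 between states of preadipocytes and from 2 to 0 for the difference of these state effects. Calls over all genes fell with it from 7468 to 3993 between preadipocytes and progenitors, from 5692 to 3127 between regulatory cells and progenitors, from 3399 to 1530 between regulatory cells and preadipocytes, and from 2364, 1579, 19, 189 and 11 to 122, 128, 2, 1 and 0 for the states of progenitors, preadipocytes and regulatory cells and the differences of the latter classes from progenitors. Between states of preadipocytes 3 members were called with stricter gates and 1 in thinned cells. For the difference of the preadipocyte effect from that of progenitors (2 reported), a mitochondrial limit of 10% gave 1, stricter gates 1, thinned cells 0 and leaving out a mouse 0 to 2. For the states of regulatory cells (0 reported), no filter on low counts gave 1 and thinned cells 1. For the difference of the regulatory effect from that of progenitors (0 reported), DESeq2 gave 1, no filter 2 and leaving out a mouse 0 to 1. Leaving out a mouse gave 3 to 7 between regulatory cells and preadipocytes. With stricter gates the regulatory states held under 10 cells in a mouse and were not fitted. The cause of these moves was not tested.

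Of 660 log2 fold changes of members under an alternative, 16 had the other sign, none past the threshold there. Dusp5 between regulatory cells and progenitors, reported at 0, was 0.01 with library size, 0.80 with stricter gates, 0.13 with cells of several gates kept, 0.70 in thinned cells, 0.03 without cells of other markers and between -0.13 and 0.18 when a mouse was left out. Between states Dusp5 was 0.00 with library size and -0.04 thinned in progenitors, and -0.99 thinned in preadipocytes. Dusp6 between regulatory cells and preadipocytes was 0.20 with stricter gates, 0.13 with cells of several gates kept and between -0.38 and 0.29 when a mouse was left out. Between states of preadipocytes Dusp10 was -0.23 in thinned cells and Dusp14 0.36 with stricter gates. In resting cells alone Dusp1 was -0.11 between preadipocytes and progenitors and Dusp14 0.09 between regulatory cells and progenitors.

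Calls over all genes moved by more than 1.5 times under other settings too. In thinned cells they were 3305 and 1844 for regulatory cells against progenitors and preadipocytes, 1524, 288 and 89 for the states of the 3 classes, and 95 and 55 for the differences of state effects. DESeq2 gave 1458 for the states of progenitors, 117 (94 higher, 23 lower) for those of regulatory cells, 216 (163 higher, 53 lower, against 116 and 73) for the preadipocyte difference and 58 for the regulatory one, but gave no adjusted p to 9132, 3279 and 6323 of 12070 genes in the latter 3. Without the filter the regulatory states gave 177 and the differences 424 and 110. Library size gave 53 and 36 for the regulatory states and their difference, stricter gates 652 for the states of preadipocytes, cells of several gates kept 43 for the regulatory states, and high-UMI cells left out 19 for the regulatory difference. Leaving out a mouse gave as few as 2054 between regulatory cells and preadipocytes (without mouse 2), 1271 and 967 for the states of progenitors and preadipocytes (both without mouse 3), 12 to 61 for the regulatory states, and 72 to 368 and 0 to 86 for the differences. Few UMIs stand behind Dusp4, Dusp14 in preadipocytes and the states of regulatory cells.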
